A study of Mus musculus with 12 samples.

Results

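TRAJ7, TRAJ44 and TRAJ47 are 3 of the 44 joining (J) segments found in TCRα repertoires of newly developed regulatory T cells (Treg) from the mouse thymus. Their members were taken as all clonotype rows assigned to 1 of these segments, whether or not the deposited translation was in frame. They comprised 2405 of 57431 rows and 6311 of 199248 unique molecular identifiers (UMIs), or 3.17% of the UMIs. TRAJ7 had 935 rows and 2330 UMIs, TRAJ44 had 840 rows and 2180 UMIs, and TRAJ47 had 630 rows and 1801 UMIs. The segments were chosen by the frame marks and stop codons in the deposited CDR3 translations, which nearly all of their rows carried, so that their frame values are given as a description, without a test. A clonotype is a V segment, a CDR3 nucleotide sequence and a J segment, except in the abundance tests, which join clonotypes of the same deposited CDR3 translation. A row is a clonotype in 1 library.

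The TCRα chain is made in the thymus by joining 1 of many TRAV segments to 1 of many TRAJ segments, with loss and addition of bases at the joint. The joint and its flanks form the CDR3, the loop that touches the peptide bound to MHC, which runs from a conserved cysteine of the V segment to a conserved residue just before the Gly-X-Gly motif of the J segment, most often phenylalanine. Only a joint that keeps the J segment in the reading frame of the V segment gives a TCRα protein. IL-2 and IL-15 are cytokines that share receptor subunits and support the development of Treg in the thymus.

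The study asked how IL-2 and IL-15 shape the repertoire of developing Treg. From the thymus of B6 mice aged 3 weeks, 100000 CD4+CD8-Thy1.1+GFP+ cells of each mouse had been sorted as newly developed Treg. All mice, the controls included, carried Rag2-Gfp, which marks cells that expressed the recombinase recently, Foxp3-Thy1a, which marks Foxp3-expressing cells by Thy1.1, the Kaa Tcrb transgene and Tcra+/null, and 4 each were wild type (wt), Il2° and Il15°, where ° stands for the null genotype. The TCRβ chain was thus fixed by a transgene and 1 functional Tcra allele remained, so that the repertoire is that of TCRα chains beside a single TCRβ chain. The libraries hold Tcra mRNA alone, so that the sorted cell type could not be checked against its markers in these tables, and a smaller share of UMIs can come from fewer cells or from less mRNA per cell, which cannot be told apart.

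The libraries held 25980, 23915, 15977 and 17330 UMIs in wt mice 1 to 4, then 13274, 18652, 15379 and 7625 in Il2° mice and 18018, 13758, 10751 and 18589 in Il15° mice. Per library, 92 to 313 rows and 247 to 883 UMIs belonged to the 3 segments. A floor of 3 UMIs lay between 0.0115% and 0.0393% of a library.

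Some libraries held sequences in common beyond the level of most pairs. Out-of-frame or stop-bearing clonotypes of the other J segments were used as the measure, as the share of such clonotypes of the smaller library that the other library also held. In 53 of the 66 pairs of libraries this share was at most 5.17%, with a median of 0%, whereas in 13 pairs it lay between 9.09% and 46.6%. These 13 pairs are called linked, by limits of 5% and 5 clonotypes set after seeing the data. Of the linked pairs, 9 lay within a genotype, 4 joined a wt and an Il2° library, with the highest value of 46.6% for wt mouse 2 and Il2° mouse 1, and 0 joined an Il15° library to another genotype. Of 256 such clonotypes counted over linked pairs, 239 had a single UMI in at least 1 of the 2 libraries. Rows of a single UMI were common in this class, at 56.7% of its rows over all libraries, which is a share per row and not per pair. The cause was not tested. The libraries of a genotype may therefore not be independent, while the p-values treat them as separate samples, and results that rest on shared sequences are given also without the linked pairs, or without rows of 1 UMI that a linked library also held. Rows of 1 UMI that a linked library also held made up 6.70% of all UMIs and 9.78% of the UMIs of TRAJ7, TRAJ44 and TRAJ47.

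The germline J segments are shown because the codon before the Gly-X-Gly motif, printed in capitals, sets where the CDR3 ends. They come from the GENCODE M21 annotation of GRCm38, chromosome 14, plus strand, as 5′ to 3′ sequences of annotated J segments. TRAJ47 lies at chr14:54171800-54171856, TRAJ44 at chr14:54173690-54173750 and TRAJ7 at chr14:54211470-54211528. TRAJ9 and TRAJ48, neighbours by number whose rows were mostly in frame, are shown for comparison.
TRAJ7: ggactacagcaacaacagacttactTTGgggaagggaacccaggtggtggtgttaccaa
TRAJ44: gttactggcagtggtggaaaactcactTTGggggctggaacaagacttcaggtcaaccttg
TRAJ47: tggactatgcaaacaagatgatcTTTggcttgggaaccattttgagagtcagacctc
TRAJ9: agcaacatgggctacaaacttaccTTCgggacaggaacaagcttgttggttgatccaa
TRAJ48: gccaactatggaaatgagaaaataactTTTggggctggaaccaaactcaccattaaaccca

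In TRAJ7 and TRAJ44 this codon was TTG, which encodes leucine, whereas TRAJ47 had TTT for phenylalanine like most segments. Among the 44 J segments found in these libraries, the codon encoded phenylalanine in 40, tryptophan in 2, TRAJ33 and TRAJ38, and leucine in TRAJ7 and TRAJ44. Annotated segments not found in the libraries were not examined for this codon. Of the 51 annotated TRAJ segments, TRAJ47 had 9 before it and 41 after it, TRAJ44 had 12 before and 38 after, and TRAJ7 had 45 before and 5 after, so that TRAJ47 and TRAJ44 lie close together near the V side of the array and TRAJ7 lies near the constant region.

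The leading CDR3 sequence of each segment shows where the deposited sequence stopped. The capitals mark the bases of the conserved codon, complete or not, and any base after it.
TRAJ7 with TRAV14-3: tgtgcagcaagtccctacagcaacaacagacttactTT
TRAJ44 with TRAV4D-4: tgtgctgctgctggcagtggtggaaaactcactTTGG
TRAJ47 with TRAV4D-3: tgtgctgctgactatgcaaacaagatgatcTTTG
TRAJ9 with TRAV7-3: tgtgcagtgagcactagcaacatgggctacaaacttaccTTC
TRAJ48 with TRAV4D-4: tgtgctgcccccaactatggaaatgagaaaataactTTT

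The TRAJ7 sequence had 38 bases and stopped 1 base short of the end of the TTG codon. The TRAJ44 sequence had 37 bases and the TRAJ47 sequence had 34 bases, and both ran 1 base past the conserved codon. The TRAJ9 sequence, with 42 bases, and the TRAJ48 sequence, with 39 bases, ended on the codon. Read from the first base to the conserved codon, the leading TRAJ47 sequence gave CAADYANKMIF, while the deposited translation was CAADYA_TR*SL, in which _ marks a broken codon and * a stop. In the same way the TRAJ44 sequence read CAAAGSGGKLTL against the deposited CAAAGS_VENSLW, and the TRAJ7 sequence read CAASPYSNNRLTL against CAASPY_QQQTYF. In this and the other TRAJ7 readings, the last base of the TTG codon, and so the final L, was completed from the germline.

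The same ends were found in nearly all members. Among UMIs of TRAJ7, 98.8% had a CDR3 length that left 2 bases after division by 3, and 99.4% of TRAJ44 and 98.2% of TRAJ47 UMIs had a length that left 1 base. Out-of-frame CDR3 of the other J segments left 1 base in 51.2% and 2 bases in 48.8% of their UMIs. The most frequent end of the CDR3 was 1 base before the end of the conserved codon in TRAJ7 and 1 base after it in TRAJ44 and TRAJ47. It was exactly at the codon in 40 other segments, and 1 base after it in TRAJ25, which had only 30 UMIs. The deposited translations were filled from both ends, so that TRAJ7 ended in YF in 99.7% of UMIs, TRAJ44 in LW in 99.9% and TRAJ47 in SL in 99.7%.

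**Figure D1:**
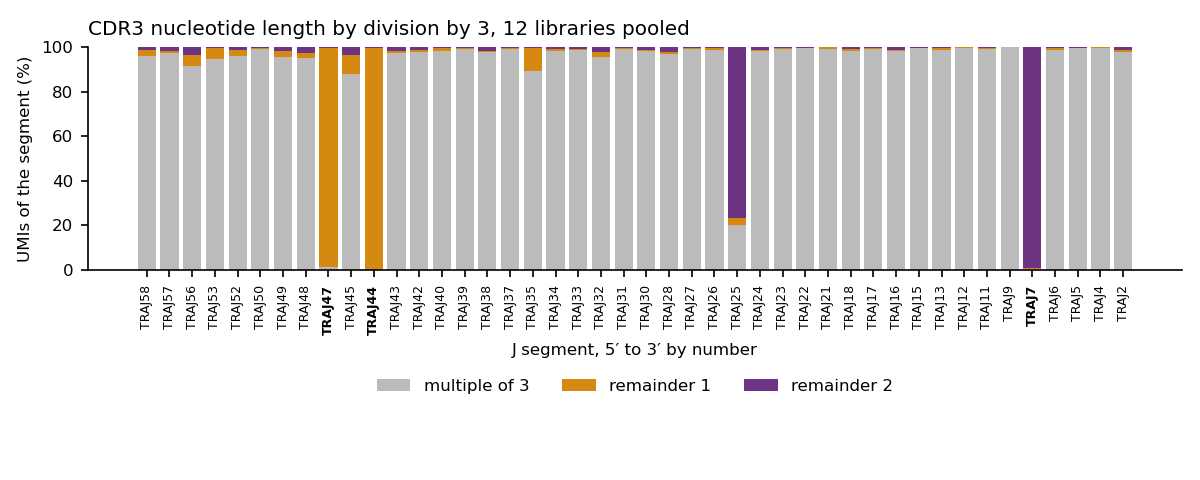
Percent of the UMIs of each J segment (12 libraries pooled) by the remainder of the CDR3 nucleotide length divided by 3, with the segments in order along the locus by number and the 3 segments in bold. TRAJ7 is almost wholly of remainder 2 (98.8%), TRAJ44 and TRAJ47 are of remainder 1 (99.4% and 98.2%), and the other bars are mostly multiples of 3 except TRAJ25, with 30 UMIs.

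A frame mark or a stop codon was carried by 99.3% of TRAJ7, 99.9% of TRAJ44 and 99.8% of TRAJ47 UMIs. In the 40 other segments apart from TRAJ25 the median was 1.60%, from 0.0438% in TRAJ9 to 12.2% in TRAJ45, the segment just below the 3. The 3 segments together held 72.3% of all UMIs with a frame mark or stop. Such UMIs made up 4.37% of the UMIs of the whole data set, and those of the other J segments alone made up 1.21% of the same total.

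Read against the germline, the joints of these segments were mostly in frame. The last 8 bases of each CDR3 were placed on the germline J segment, and a row was counted as in the J frame when the conserved codon was in frame with the V cysteine and no stop codon lay before it. By this measure 98.7% of TRAJ7, 99.4% of TRAJ44 and 98.4% of TRAJ47 UMIs were in the J frame, beside a median of 98.3% and a range from 87.4% in TRAJ45 to 99.8% in TRAJ9 for 40 other segments. TRAJ25, left out of that range, had a stop codon in all of its 30 UMIs. Translated from the first base, the CDR3 of the 3 segments held a stop codon in 0.333% of UMIs, whereas 46.9% of UMIs of other segments with a frame mark did. The exceptions, rows out of the J frame or with a stop, were 20 TRAJ7 rows with 30 UMIs, 9 TRAJ44 rows with 12 UMIs and 14 TRAJ47 rows with 29 UMIs.

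All 3 segments were of middle rank in usage. Over the 12 libraries TRAJ7, TRAJ44 and TRAJ47 were 25th, 26th and 28th of 44 J segments by mean share of UMIs, with TRAJ6 in rank 22 above them and TRAJ48 and TRAJ43 in ranks 29 and 30 below. The share of TRAJ7 was 1.42%, 0.953%, 0.864% and 0.866% in wt, 1.16%, 1.48%, 1.29% and 1.02% in Il2°, and 1.29%, 1.26%, 1.13% and 1.14% in Il15° libraries. The group means ± SD were 1.03% ± 0.27 in wt, 1.24% ± 0.19 in Il2° and 1.203% ± 0.085 in Il15° (n = 4 each), and the groups overlapped, with the highest wt library well above the other 3 wt libraries.

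For TRAJ44 the shares were 1.16%, 1.20%, 0.889% and 0.894% in wt, 0.987%, 1.10%, 1.15% and 1.23% in Il2°, and 1.03%, 1.33%, 0.967% and 1.15% in Il15° libraries. Means were 1.04% ± 0.17, 1.12% ± 0.10 and 1.12% ± 0.16 (SD, n = 4 each), and the 3 genotypes overlapped throughout. TRAJ47 took 0.812%, 0.978%, 1.10% and 0.917% of UMIs in wt, 0.648%, 1.02%, 1.03% and 0.984% in Il2°, and 1.04%, 0.661%, 0.428% and 1.02% in Il15° libraries. Its means were 0.951% ± 0.118, 0.919% ± 0.182 and 0.786% ± 0.295 (SD, n = 4 each). The spread of TRAJ47 was widest in Il15°, where libraries 2 and 3 lay below every wt library and libraries 1 and 4 lay within the wt range. For counting error alone, the 95% Wilson interval ran from 0.785% to 1.23% for TRAJ47 in the shallowest library, Il2° mouse 4, and from 0.710% to 0.929% in the deepest, wt mouse 1. Such intervals cover counting error only. Without the rows of 1 UMI that a linked library also held, the means in wt, Il2° and Il15° were 0.974%, 1.18% and 1.12% for TRAJ7, 1.01%, 1.08% and 1.09% for TRAJ44, and 0.935%, 0.908% and 0.781% for TRAJ47.

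None of the 3 segments passed the test of usage between genotypes. In edgeR's quasi-likelihood test over the 43 J segments with enough UMIs, at a Benjamini-Hochberg adjusted p under 0.05, 9.3% of segments were called in Il2° against wt, 4.65% in Il15° against wt and 6.98% in Il15° against Il2°, and 0 of the 3 segments were called in any of them. At an unadjusted p under 0.05 the numbers were 7, 5 and 7 of 43 segments, again with 0 of the 3, and in exact 2-sided Mann-Whitney tests the adjusted p of the 3 segments lay between 0.506 and 0.977, where the smallest unadjusted p of 4 against 4 libraries is 0.0286 and adjustment over 43 segments leaves little room to pass. Against wt, TRAJ7 had a log2 fold change of 0.26 in Il2° (SE 0.16, edgeR adjusted p = 0.478) and of 0.23 in Il15° (SE 0.16, edgeR adjusted p = 0.508). Without wt mouse 1, the library that was high for TRAJ7, the Il2° value became 0.49 and passed the threshold, and the Il15° value became 0.44. Leaving out each of the 12 libraries in turn gave 0.14 to 0.49 for TRAJ7 in Il2° and 0.16 to 0.44 in Il15° against wt. TRAJ44 had 0.081 in Il2° (SE 0.17, edgeR adjusted p = 0.795) and 0.12 in Il15° (SE 0.17, edgeR adjusted p = 0.833) against wt. TRAJ47 had -0.063 in Il2° (SE 0.19, edgeR adjusted p = 0.862) and -0.24 in Il15° (SE 0.19, edgeR adjusted p = 0.630) against wt. Between Il15° and Il2° the log2 fold changes were -0.024, 0.035 and -0.17 for TRAJ7, TRAJ44 and TRAJ47, with edgeR adjusted p from 0.608 to 0.964. With a library left out, TRAJ47 in Il15° against wt ran from -0.41 without Il15° mouse 1 to -0.053 without Il15° mouse 3. The contrasts against wt share the wt libraries.

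**Figure D2:**
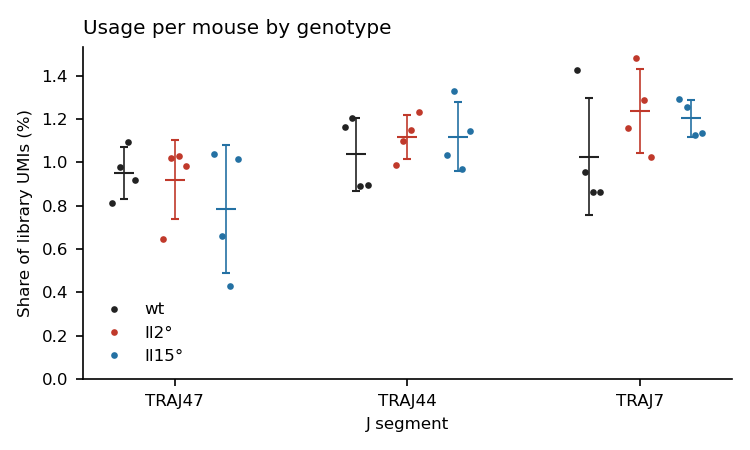
Share of UMIs (%) of TRAJ47, TRAJ44 and TRAJ7 in each of the 12 libraries by genotype, with mean and SD (n = 4). The genotypes overlap for each segment, and TRAJ47 ranges from 0.428% to 1.04% in Il15°.

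The shares of the 3 segments did not move as a group over the libraries. As a description over 12 libraries that differ in depth and share sequences, Pearson's r of log2 CPM was 0.453 between TRAJ7 and TRAJ44, -0.127 between TRAJ7 and TRAJ47 and 0.0771 between TRAJ44 and TRAJ47. The J segments most like TRAJ7 were TRAJ9 (r = 0.799) and TRAJ6 (r = 0.766), those most like TRAJ44 were TRAJ15 (r = 0.648) and TRAJ6 (r = 0.586), and those most like TRAJ47 were TRAJ30 (r = 0.695) and TRAJ52 (r = 0.612).

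TRAJ47 was joined mostly to the TRAV4 family, and TRAJ44 to TRAV4 and TRAV12. TRAJ7 was joined to TRAV4 less often, and to TRAV14 and TRAV12 more often, than the other J segments were. Partners were compared within each mouse with the in-frame UMIs of all other J segments, by an exact 2-sided sign-flip permutation test over the 12 mice, adjusted over 473 pairs of J segment and TRAV family. Of all 473 pairs, 69.8% were called, with a median of 8 of 11 families per J segment, so that a departure from the pooled partners was common. TRAJ47 had 11 families called, TRAJ44 had 9 and TRAJ7 had 6. The family shares of a segment add up to the whole, so that the calls within a segment are not independent. The smallest p these 12 mice allow is 0.000488, which gave an adjusted p of 0.00121 in the exact permutation test.

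TRAV4 took 75.4%, 73.5%, 90.3% and 81.1% of TRAJ47 UMIs in wt, 68.6%, 58.9%, 69.6% and 73.3% in Il2°, and 75.9%, 80.2%, 91.3% and 82.5% in Il15° mice. The mean was 76.7% ± 9.1 (SD, n = 12) beside 31.9% ± 4.0 for the other J segments, higher in 12 of 12 mice (exact permutation test, adjusted p = 0.00121), and the highest of the 43 segments, with TRAJ32 next at 75.1%. By the deposited assignment, TRAV4D-3 supplied 66.5% of TRAJ47 UMIs, against 16.6% of the in-frame UMIs of other segments, and TRAV4D-4 supplied 7.11%. The V segment is uncertain within a family, which holds near-identical copies. The other named families were lower. With TRAV4 at 76.7% less was left for every other family, so that their lower shares are not separate findings. Their shares among UMIs without TRAV4 were not tested. TRAV7 took 7.20% of TRAJ47 UMIs beside 20.1%, lower in 12 of 12 mice, TRAV12 took 2.85% beside 9.81%, also lower in 12 of 12, TRAV6 took 5.31% beside 9.74% and TRAV14 took 2.42% beside 6.84%, both lower in 10 of 12 (exact permutation test, adjusted p from 0.00121 to 0.00603). TRAV10 and TRAV16, picked after their values were seen, were at 0 of 1801 TRAJ47 UMIs, which allows a share of up to 0.167% by a floor of 3 UMIs. This floor pools 12 libraries, some of them linked, and covers counting error only.

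TRAJ44 used TRAV12 in 23.6% ± 7.0 of its UMIs (SD, n = 12) beside 9.81%, and TRAV4 in 42.5% ± 6.9 beside 31.9%, both higher in 12 of 12 mice (exact permutation test, adjusted p = 0.00121 for each). Among the 43 segments TRAJ44 was 5th for TRAV12 and 17th for TRAV4. Within TRAV4, by the deposited assignment, TRAV4D-4 supplied 25.2% and TRAV4D-3 supplied 16.9% of TRAJ44 UMIs. It used TRAV6 in 3.40%, TRAV7 in 14.3% and TRAV3 in 1.65% of UMIs, beside 9.74%, 20.1% and 4.70%, lower in 11, 10 and 12 of 12 mice (exact permutation test, adjusted p from 0.00121 to 0.0115).

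TRAV7 took 21.7% ± 8.3 of TRAJ7 UMIs (SD, n = 12) beside 20.1% in other segments, higher in 6 and lower in 6 mice, which did not pass (exact permutation test, adjusted p = 0.494). The order of the TRAJ7 families differed between genotypes. The means of TRAV7, TRAV12, TRAV14 and TRAV4 were 19.3%, 22.3%, 14.2% and 17.2% in wt, 29.0%, 16.4%, 16.9% and 8.54% in Il2°, and 16.8%, 22.1%, 22.3% and 11.2% in Il15° mice (n = 4 each), and these differences between genotypes were not tested. TRAJ7 was joined to TRAV4 in 12.3% ± 6.9 of its UMIs (SD, n = 12), lower than the other segments in 12 of 12 mice and 39th of 43 segments (exact permutation test, adjusted p = 0.00121). TRAV14 took 17.8% beside 6.84% and TRAV12 took 20.3% beside 9.81%, both higher in 12 of 12 mice with the same adjusted p from the exact permutation test. For TRAV14 TRAJ7 was second of 43 segments, after TRAJ2 at 21.2%, and for TRAV12 it was 7th. TRAV10 took 1.23% beside 4.03%, lower in 12 of 12 mice (exact permutation test, adjusted p = 0.00121), and TRAV16 took 1.31% beside 3.62%, lower in 10 of 12 (exact permutation test, adjusted p = 0.0115). TRAJ7 therefore lay at the opposite end from TRAJ47 in the use of TRAV4. Among neighbours by number, TRAV4 took 11.7% of TRAJ6 and 23.4% of TRAJ9 UMIs, next to TRAJ7, and 43.7% of TRAJ43, 54.7% of TRAJ45 and 61.4% of TRAJ48 UMIs, next to TRAJ44 and TRAJ47.

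**Figure D3:**
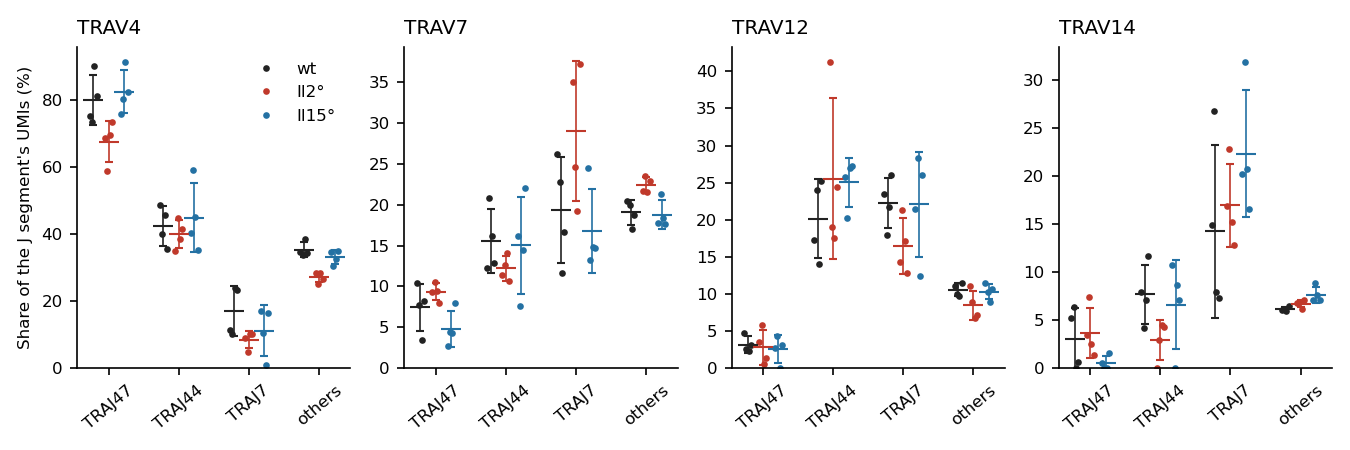
Percent of UMIs of TRAJ47, TRAJ44, TRAJ7 and the in-frame rows of other J segments that use TRAV4, TRAV7, TRAV12 or TRAV14, with a point per mouse and mean ± SD for each genotype (n = 4), and a separate vertical scale in each panel. TRAV4 reaches a mean over all mice of 76.7% in TRAJ47 and 12.3% in TRAJ7, beside 31.9% in the other segments.

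Between genotypes, a few partner shares of the 3 segments had groups that did not overlap, without a test. Over all 473 pairs the share without overlap was 6.55% in Il2° against wt, 4.23% in Il15° against wt and 5.92% in Il15° against Il2°. Of the 33 pairs of the 3 segments, 2 were without overlap in Il2° against wt, TRAV4 and TRAV6 of TRAJ47, 1 in Il15° against wt, TRAV3 of TRAJ7, and 5 in Il15° against Il2°, TRAV16 and TRAV5 of TRAJ7, TRAV3 of TRAJ44, and TRAV4 and TRAV7 of TRAJ47. Some of these rested on few UMIs. The lowest Il2° value was 1 of 276 UMIs for TRAV16 of TRAJ7 and 1 of 94 UMIs for TRAV3 of TRAJ44, under the floor of 3 UMIs, beside 0 in each Il15° mouse, and for TRAV7 of TRAJ47 the nearest values were 6 of 75 UMIs in Il2° and 15 of 189 UMIs (7.94%) in Il15°. These 3 pairs overlapped without the rows of 1 UMI that a linked library also held. For TRAV5 of TRAJ7 the nearest values were 3.85% in Il2°, from 3 of 78 UMIs, and 3.79% in Il15°. For TRAV6 of TRAJ47 the nearest values were 4 of 86 UMIs (4.65%) in Il2° mouse 1 and 9 of 234 UMIs (3.85%) in wt mouse 2. These libraries are linked, and the groups also did not overlap without the rows of 1 UMI that a linked library also held. For TRAV3 of TRAJ7 the Il15° values were 4.29%, 6.94%, 32.2% and 4.74%, so that mouse 3 stood apart. The nearest values of this pair were 10 of 233 UMIs in Il15° and 5 of 150 UMIs (3.33%) in wt. For TRAV4 of TRAJ47, every Il2° mouse lay below every wt and Il15° mouse, with nearest values of 73.3% in Il2° and 73.5% in wt, and TRAV4 among the other J segments was also lower in Il2°, at 27.2% ± 1.6 beside 35.4% ± 2.2 in wt and 33.1% ± 2.1 in Il15° (SD, n = 4 each). The TRAJ47 groups also did not overlap without the rows of 1 UMI that a linked library also held, at 58.6% to 73.1% in Il2°, 76.2% to 91.1% in wt and 76.6% to 94.3% in Il15°.

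Read to the conserved codon, CDR3 of TRAJ7 and TRAJ44 had a mean length near that of the other segments pooled and CDR3 of TRAJ47 were shorter. The mean length was 13.2 ± 0.1 amino acids for TRAJ7, 13.5 ± 0.2 for TRAJ44 and 12.2 ± 0.2 for TRAJ47 (SD, n = 12), and 13.0 together, beside 13.1 ± 0.02 for the other segments. Over single other segments the mean ran from 11.5 in TRAJ43 to 15.1 in TRAJ2, with TRAJ26 at 11.8 and TRAJ33 at 12.2. TRAJ47 thus lay inside the range of single J segments. TRAJ7 was concentrated at 13 amino acids with 51.0% and at 14 with 33.3% of its UMIs. TRAJ44 had 29.8% at 13, 30.9% at 14 and 17.5% at 15 amino acids. TRAJ47, with the shorter germline segment, had 28.6% at 11, 28.6% at 12 and 27.4% at 13 amino acids. The median number of germline J bases removed was 3 in TRAJ7, 3 in TRAJ44 and 4 in TRAJ47, beside 3 in the other segments. A restored amino acid sequence was encoded by 1.32, 1.33 and 1.55 nucleotide sequences on average in TRAJ7, TRAJ44 and TRAJ47, beside 1.39 in other segments.

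The mean length of TRAJ47 lay between 12.3 and 12.5 amino acids in wt, 12.1 and 12.4 in Il2°, and 11.8 and 12.2 in Il15° mice, so that the Il15° mice lay below the wt mice without overlap. Of the 43 segments, 6.98% had no overlap in this comparison, and the same share in Il2° against wt and 16.3% in Il15° against Il2°, and TRAJ47 in Il15° against wt was the only case among the 3 segments. Without the rows of 1 UMI that a linked library also held, the TRAJ47 groups overlapped.

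**Figure D4:**
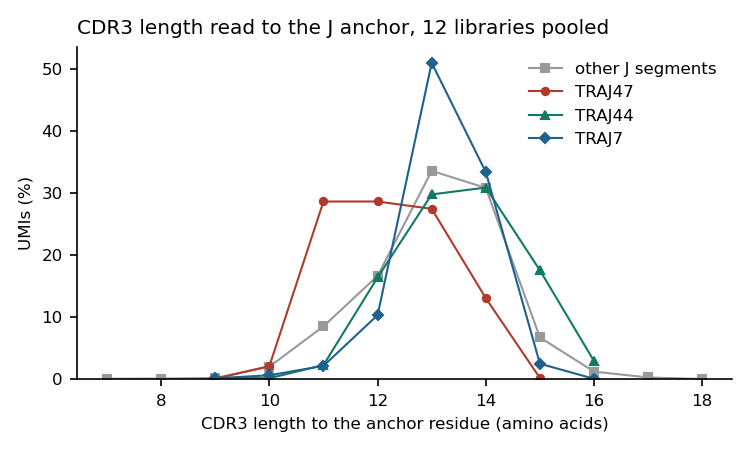
Percent of UMIs by CDR3 length in amino acids, read from the V cysteine to the conserved J codon, for TRAJ7, TRAJ44, TRAJ47 and other J segments. TRAJ7 peaks at 13 amino acids with 51.0% of UMIs, and TRAJ47 is spread over 11 to 13.

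Clonotypes of the 3 segments carried fewer UMIs than in-frame clonotypes of other segments and more than those with a frame mark or stop. The members had 2.62 UMIs per row, with 2.49 in TRAJ7, 2.60 in TRAJ44 and 2.86 in TRAJ47. The other segments had 3.54 in frame and 1.90 with a frame mark or stop. The members lay below the first and above the second in 12 of 12 mice, without a test. Over 40 other segments the values ran from 2.20 in TRAJ53 to 4.70 in TRAJ31 with a median of 3.05, without TRAJ25 at 1.88, so that the 3 segments lay inside the range of single J segments. Members out of the J frame had 1.65 UMIs per row.

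Single clonotypes of the 3 segments occurred in many mice. The leading TRAJ44 clonotype was found in 12 of 12 libraries, with 23, 10, 18 and 6 UMIs in wt, 4, 11, 12 and 8 in Il2° and 9, 8, 7 and 13 in Il15° mice. It was the only clonotype of the 3 segments in all 12 libraries. The leading TRAJ47 clonotype was found in 11, with 25, 16, 27 and 8 UMIs in wt, 0, 28, 20 and 9 in Il2° and 25, 1, 1 and 13 in Il15° mice. The leading TRAJ7 clonotype was found in 9, with 3, 12, 1 and 1 UMIs in wt, 9, 15, 12 and 0 in Il2° and 0, 8, 11 and 0 in Il15° mice. Without the rows of 1 UMI that a linked library also held, the TRAJ44, TRAJ47 and TRAJ7 clonotypes were found in 12, 9 and 7 libraries.

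The next 2 clonotypes of each segment by mean share are shown for their joints, in which the V segment, the bases at the joint or the start of the J part differ while the CDR3 end stays the same within a segment. The 2 TRAJ44 sequences with TRAV12-3 both read CALLTGSGGKLTL and were held by 8 and 10 libraries.
TRAJ7 with TRAV7N-5: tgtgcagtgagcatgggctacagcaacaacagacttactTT
TRAJ7 with TRAV12N-3: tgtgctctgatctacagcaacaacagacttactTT
TRAJ44 with TRAV12-3: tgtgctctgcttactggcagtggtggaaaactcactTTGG
TRAJ44 with TRAV12-3: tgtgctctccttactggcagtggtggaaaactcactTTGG
TRAJ47 with TRAV4D-3: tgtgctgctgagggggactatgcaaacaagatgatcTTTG
TRAJ47 with TRAV4D-4: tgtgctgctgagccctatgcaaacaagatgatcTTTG

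The TRAJ7 sequences shown had 59 and 37 UMIs in 8 and 9 libraries and read CAVSMGYSNNRLTL and CALIYSNNRLTL. The TRAJ47 sequences had 50 and 44 UMIs, each in 11 libraries, and read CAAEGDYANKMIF and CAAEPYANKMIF. Without the rows of 1 UMI that a linked library also held, these libraries numbered 8 and 8 for TRAJ7, 8 and 9 for TRAJ44, and 9 and 10 for TRAJ47. Counted by restored amino acids over all V copies, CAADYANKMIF of TRAJ47 reached 216 UMIs from 5 nucleotide sequences in 12 libraries, CAAAGSGGKLTL of TRAJ44 reached 157 UMIs, and CAASPYSNNRLTL of TRAJ7 reached 139 UMIs from 6 nucleotide sequences and 4 V segments in 11 libraries. TRAV segments of this locus occur in near-identical copies, so that the V segment of a clonotype is uncertain within a family.

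For abundance, clonotypes were defined by V segment, deposited CDR3 translation and J segment. Of 668 such clonotypes with enough UMIs, 21 belonged to the 3 segments, 5 to TRAJ7, 7 to TRAJ44 and 9 to TRAJ47. The other clonotypes of the 3 segments did not reach 5 UMIs in 4 libraries. By edgeR's quasi-likelihood test 0% of the 668 were called in each comparison, and thus 0 of the 21. At an unadjusted p under 0.05, 45, 39 and 90 of the 668 and 0, 1 and 0 of the 21 passed in Il2° against wt, Il15° against wt and Il15° against Il2°, and DESeq2 called 3, 9 and 13 of the 668 and 0 of the 21. In Il2° against wt, 12 of the 21 clonotypes had a positive and 9 a negative log2 fold change with a median of 0.13, beside 338 and 330 of all 668 with a median of 0.021. The median of the clonotypes tested from the 3 segments was -0.027 without wt mouse 4 and 0.52 without wt mouse 3. In Il15° against wt the 21 were split 14 to 7 with a median of 0.39, beside 306 to 362 with -0.12 for all 668. This split was 9 to 9 with a median of 0.031 without Il15° mouse 4, and 39 to 42 with a median of -0.11 under a minimum of 2 UMIs in 4 libraries. In Il15° against Il2° the split was 10 to 11 with a median of -0.059, beside 322 to 346 with -0.060. With a library left out, this median ran from -0.21 without Il2° mouse 2 to 0.096 without Il15° mouse 3. With a block for replicate number the split was 12 to 9 with a median of 0.45, beside -0.12 for all 668. With 8 libraries in the fit, 10 clonotypes of the 3 segments were tested, split 4 to 6 with a median of -0.28. By nucleotide sequence, 602 clonotypes and 10 of the 3 segments had enough UMIs, and the 10 were split 5 to 5 with a median of -0.036 in Il2° against wt, 7 to 3 with 0.37 in Il15° against wt and 5 to 5 with -0.14 in Il15° against Il2°. These directions thus depended on single libraries, on the minimum, on the definition and on the model fitted.

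Many clonotypes of the 3 segments were found in several mice. In the 53 pairs of libraries that were not linked, a median of 18.6% (from 11.4% to 26.9%) of the smaller library's clonotypes of the 3 segments was also in the other library. The median was 21.3% (from 17.5% to 28.6%) for other in-frame clonotypes and 0% (from 0% to 5.17%) for other clonotypes with a frame mark or stop, the class that defined the links. The 3 segments lay above the latter in 53 of 53 and above the in-frame clonotypes in 11 of 53 pairs, which share libraries and are given without a test. By segment the medians were 13.2% for TRAJ7, above the in-frame clonotypes in 3 of 53 pairs, 22.2% for TRAJ44, above in 28, and 20.9% for TRAJ47, above in 20. In the 13 linked pairs all 3 classes were higher, at 40.3% for the 3 segments, 36.4% for other in-frame and 27.4% for other marked clonotypes.

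Over single clonotypes, 42.9% of the 1327 clonotypes of the 3 segments were found in at least 2 libraries, beside 43.2% of 28601 other in-frame and 22.8% of 1011 other clonotypes with a frame mark or stop. The share was 42.8% in TRAJ7, 44.1% in TRAJ44 and 41.5% in TRAJ47, and 19.4% in the 36 members out of the J frame. When only libraries that were not linked counted, the values were 18.6%, 19.5% and 1.68%, and 15.4%, 21.8% and 19.5% for TRAJ7, TRAJ44 and TRAJ47. The last class is the one by which the links were defined. Sharing across genotypes in unlinked libraries was 17.4% for the 3 segments, 17.2% for other in-frame and 1.19% for other marked clonotypes. Clonotypes of the 3 segments in all 4 libraries of a genotype numbered 15 in wt, 9 in Il2° and 8 in Il15°, or 1.13%, 0.678% and 0.603% of them, beside 1.71%, 1.15% and 1.10% of other in-frame clonotypes and 0% of other marked clonotypes. Without the rows of 1 UMI that a linked library also held, 8, 3 and 3 remained, or 0.603%, 0.226% and 0.226%, beside 1.12%, 0.720% and 0.601% of other in-frame clonotypes. In all 3 genotypes occurred 77 clonotypes of the 3 segments, or 5.80%, beside 6.32% of other in-frame and 0.0989% of other marked clonotypes. Without those rows the number was 58, or 4.37%, beside 4.99% of other in-frame and 0.0989% of other marked clonotypes.

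**Figure D5:**
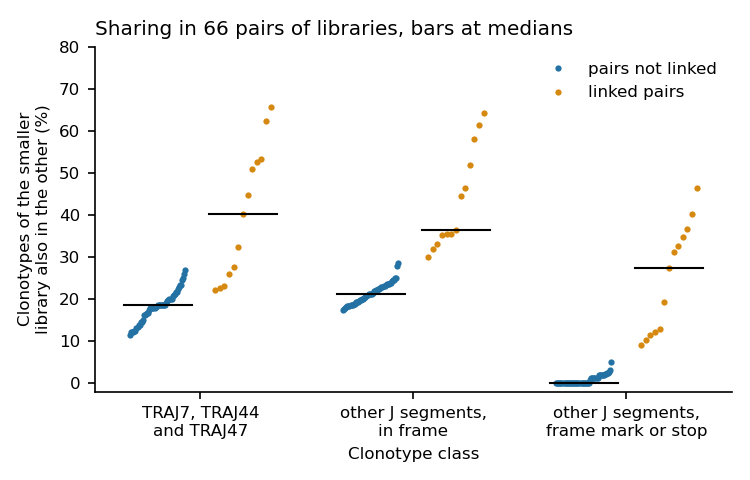
Percent of the smaller library's clonotypes also in the other library for the 66 pairs of libraries, by clonotype class, with 1 point per pair, blue for 53 pairs not linked and orange for 13 linked pairs, and bars at the medians. TRAJ7, TRAJ44 and TRAJ47 have a median of 18.6% beside 21.3% for in-frame clonotypes and lie above other clonotypes with a frame mark or stop (0%) in the pairs not linked. The class with a frame mark or stop defined the links, so that its low values in those pairs follow from how the pairs were chosen.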

How the data were processed

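TCRα mRNA was sequenced in 12 libraries, 1 per mouse. Reads were filtered by the authors at a quality of 20, collapsed to a consensus per UMI with pRESTO (at least 2 reads), assembled with MiXCR and written in the VDJtools format. The deposited count is the number of UMIs of a row and was not normalized. The fraction beside it, also deposited, is the part of the library's UMIs that the row holds. Counts were used. The labels name mm10, and tool versions are not given in the sources used here.

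Rows were selected by J segment, and CDR3 ends were placed on GENCODE M21 (GRCm38) by their last 8 bases. J segments needed 10 UMIs, and clonotypes 5 UMIs, in at least 4 libraries and were tested with edgeR 4.0.16 (TMM, 12 libraries in 1 fit, Benjamini-Hochberg, threshold 0.05), with DESeq2 1.42.0 and Mann-Whitney tests as alternatives. Partners were tested for J segments with at least 100 UMIs and families with at least 1% of UMIs. edgeR and the sign-flip test were tested on simulated data. Python 3.11.15, numpy 2.4.6, pandas 2.3.3, scipy 1.17.1 and R 4.3.3 were used.

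Named were the 3 segments, the nearest mostly in-frame segments by number, the 3 clonotypes of each with the highest mean share, up to 5 TRAV families of each with the largest called difference, and the 2 segments most alike in log2 CPM. The members and lists were chosen with earlier results of these data known. Rows of 1 UMI in a linked library, merged V copies and J-frame rows were alternatives chosen after seeing the data.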

Additional observations from a re-analysis of the deposited data

Results flagged for a closer look

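In a group of 4 libraries, a library was singled out when its gap to the nearest other library was above Dixon's critical value of the group's range, which chance gives in about 1 of 20 groups. Of 72 groups, 6 met this. The TRAJ7 share of wt mouse 1 was 1.42%, with 0.953% the next highest wt library. The TRAJ47 share of Il2° mouse 1, which was linked to wt libraries, was 0.648%, while the other Il2° mice lay between 0.984% and 1.03%. The mean CDR3 length of TRAJ44 was 13.1 amino acids in Il2° mouse 2, and from 13.5 to 13.6 in the other Il2° mice. TRAV10 took 2.58% of TRAJ7 UMIs in Il15° mouse 1 and was at 0 in the other Il15° mice. These held only 173, 121 and 211 TRAJ7 UMIs, so that a floor of 3 UMIs is a far larger share here than in a whole library. The leading TRAJ7 clonotype took 0.0502% of UMIs in wt mouse 2, with 0.0115% the next highest wt library. The same clonotype was at 0 in Il2° mouse 4, the shallowest library, whose floor of 3 UMIs was 0.0393%, and between 0.0678% and 0.0804% in the other Il2° mice.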

How the results depend on the processing

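The named TRAV partner differences kept their direction and their side of the threshold under all alternatives run, and 330 of 473 partner pairs (69.8%) were called with all libraries. With a library left out, 318 to 338 were called, or 65.5% to 70.4% of those tested, where 338 of 516 without wt mouse 1 was the lowest share. With single V segments in place of families it was 733 of 989 (74.1%). The number of J segments called depended on the setting. In Il2° against wt (4 called) it was 2 with DESeq2, 0 with each clonotype counted once, 0 with Mann-Whitney tests, 2 with the replicate block, 0 without rows of 1 UMI held by a linked library, and 0 to 6 with a library left out. In Il15° against wt (2 called) it was 1 with 8 libraries in the fit, 0 with each clonotype counted once, 0 with Mann-Whitney tests, 1 with the replicate block, 1 without the rows of linked libraries, and 1 to 2 with a library left out. In Il15° against Il2° (3 called) it was 0 with each clonotype counted once, 0 with Mann-Whitney tests, and 1 to 4 with a library left out. The Mann-Whitney test cannot give a p below 0.0286 with 4 libraries against 4, so that after adjustment over 43 segments it could hardly call any. Small log2 fold changes of the 3 segments changed sign. With each clonotype counted once, TRAJ44 was at -0.047 and TRAJ47 at 0.047 in Il2° against wt, and TRAJ7 at 0.019 in Il15° against Il2°, where it was 0.015 with J-frame rows alone. With a library left out, TRAJ44 ran from -0.039 to 0.089 and TRAJ7 from -0.088 to 0.099 in Il15° against Il2°, and TRAJ47 from -0.14 to 0.074 in Il2° against wt. TRAJ47 ran from -0.37 to -0.019 in Il15° against Il2°, and TRAJ44 from 0.027 to 0.16 in Il2° and from 0.041 to 0.19 in Il15° against wt, without a change of sign. Single clonotypes called (0 in each comparison) were 3 in Il2° against wt, 9 in Il15° against wt and 13 in Il15° against Il2° with DESeq2, 1, 4 and 6 under a lower minimum of 2 UMIs in 4 libraries, which raised the clonotypes tested from 668 to 1613, and 2, 3 and 3 with V copies merged. Library totals without TMM scaling gave 1 in Il2° against wt and 4 in Il15° against Il2°, the replicate block gave 1 in Il2° against wt, leaving out rows of linked libraries gave 1 and 3, and 8 libraries in the fit gave 1 in Il15° against Il2°. With a library left out, the ranges were 0 to 1, 0 to 2 and 0 to 4. The cause of these changes was not tested. Sharing of the 3 segments was 24.1% with at least 2 UMIs (other in frame 24.7%) and 18.6% over libraries that were not linked (19.5%), and the share of their UMIs in the J frame without stop was 98.9%, and 97.3% with each clonotype counted once. Replicate numbers belong to different mice, and their deviations correlated between -0.448 and 0.465 over 12 pairs, with 1 of 12 libraries best matched by its own number, so that the block carries no pairing. A count of 0 in a library of 7625 to 25980 UMIs allows a share of up to 0.0393% to 0.0115%.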
